A study of Mus musculus with 11 samples.

Results

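Litter was examined as a source of variation in the RNA of retinal vascular endothelial cells. The 11 libraries, which are all the libraries of the series, were grouped by the litter that the submitters recorded for each mouse. Mice 1 to 4 formed litter 1 (n = 4), mice 5 to 8 formed litter 2 (n = 4) and mice 9 to 11 formed litter 3 (n = 3). All pups were of the C57BL/6 strain, went through the oxygen-induced retinopathy (OIR) model and received an intravitreal injection of oncostatin M (OSM) or phosphate-buffered saline (PBS) at postnatal day 12. Litters 1 and 2 each held 2 OSM-injected and 2 PBS-injected mice, and litter 3 held 1 OSM-injected and 2 PBS-injected mice. At postnatal day 17 the CD31+ CD45- cells of both retinas of a mouse were sorted together, so 1 library is 1 mouse. Each litter had its own OIR run, and the litter itself, the run and anything handled separately for each run cannot be told apart here. No mouse kept in room air throughout was among these libraries, so all the values below are for OIR retinas.

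In the OIR model, pups breathe high oxygen while the retinal vessels are still growing, the young capillaries regress, and the return to room air leaves an ischemic retina into which new vessels grow. How far vessels regress and regrow can vary between pups and between litters. The endothelial cells that line these vessels respond within minutes to handling, flow and growth factors by transcribing immediate early genes, and they build the basement membrane on which they sit. A sort on surface markers can carry along RNA of neighboring cells, which in the retina are mostly photoreceptors, other neurons and glia, and blood cells.

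The question was which genes differed between litters once the injection was taken into account. Reads per gene were counted by the authors, and the totals were 26697990 to 56033479 per mouse (median 32500202). The deepest library was mouse 9 of litter 3. Endothelial markers were abundant in each mouse, with a summed level of the 16 markers between 19188 and 25415 CPM (counts scaled to a common library total), and Pecam1, which encodes CD31, had at least 29886 reads in each mouse. Mouse 3 stood apart in the number of genes with at least 1 read, 20898 when libraries were thinned to equal depth, against 16297 to 17356 in the other 10 mice. Mouse 5 stood apart in rod photoreceptor RNA, as described below. Nothing in the labels says how the retinas of a litter were handled together, and p-values here measure the spread between mice.

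Over the whole transcriptome, libraries differed by litter more than under most random arrangements of the litter labels. Litter accounted for 24.3% of the variance left between libraries after treatment means were removed (pseudo-F 1.12, exact permutation of litter labels within treatments over 2700 arrangements, one-sided p = 0.00444). A pseudo-F near 1 is what random labels give, so any grouping of this size would take most of that share. The excess over random labels was small. Litter 1 was the most uniform. Its 6 pairs of mice had a mean correlation of log2 CPM of 0.898, with a range of 0.893 to 0.904, against 0.877 for the 6 pairs within litter 2 and 0.873 for the 3 pairs within litter 3. The 16 pairs between litters 1 and 2 had a mean of 0.883, so mice of litter 2 were no closer to one another than to litter 1 by this measure. Pairs between litters 1 and 3 had a mean of 0.882 and those between litters 2 and 3 of 0.875. Mice of litter 3 were thus no closer to one another than to the other litters. The pseudo-F does not separate a difference between litters from unequal spread within them. These correlations are across genes, which are not independent replicates, and are given as a description. With the 500 most variable genes in place of all genes the pseudo-F was 1.08 (exact permutation p = 0.129), so the whole-transcriptome result was not past 0.05 for that choice.

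In the principal component analysis of variance-stabilized counts, the first component held 33.0% of the variance and separated litter 1 from most of the other mice. The litter 1 scores were -4.59, -5.84, -4.01 and -4.68, and their mean was -4.78 ± 0.77 (SD, n = 4). Litter 2 spread widely, with scores of 9.94, 4.13, 4.05 and -1.50, where the lowest is mouse 8 and the highest is mouse 5. The litter 3 scores of -1.32, 3.84 and -0.02 lay above litter 1 and within the range of litter 2. All litter 1 scores were below those of the other 7 mice. The difference among litters along this component had an exact permutation p of 0.023 and an adjusted p of 0.0689 over 3 components, which was not past 0.05. The second component (17.5% of the variance, exact permutation adjusted p = 0.108) placed the 3 mice of litter 3 and mouse 7 at the low end. The adjusted exact permutation p of the first component was 0.0178 with all genes that passed the filter and 0.248 when the components were taken from log2 CPM.

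**Figure D1:**
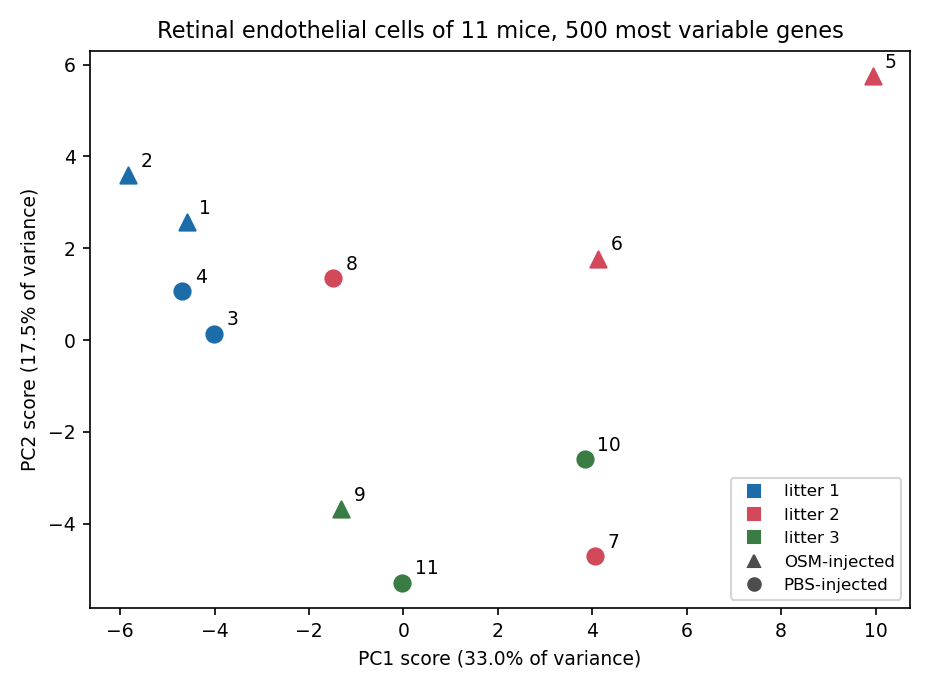
Scores of the 11 mice on the first and second principal components of variance-stabilized counts (500 most variable genes; axes in score units with the share of variance). Colors give the litter, triangles OSM-injected and circles PBS-injected mice, and numbers the mouse; the 4 mice of litter 1 sit together at PC1 scores between -5.84 and -4.01, to the left of the other 7 mice.

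Gene by gene, 17050 genes passed the filter on low counts and were tested with edgeR's quasi-likelihood F test with treatment as a covariate. A gene is called here when its Benjamini-Hochberg adjusted p is under 0.05. Across the 3 litters, 3 genes were called (0.0176% of those tested) and 10.3% were at an unadjusted p under 0.05. Between litters 2 and 1, 42 genes were called (0.246%), 14 higher in litter 2 (0.0821%) and 28 lower (0.164%). Between litters 3 and 1, 3 genes were called (0.0176%), 1 higher (0.00587%) and 2 lower (0.0117%). Between litters 3 and 2, no gene was called by edgeR, with 1099 genes at an unadjusted p under 0.05 (6.45%) and 457 genes called by DESeq2. In the other pairs, 1887 (11.1%) and 1705 genes (10.0%) were at an unadjusted p under 0.05 for litters 2 and 3 against litter 1. All 42 genes had values in litter 2 that did not overlap those of litter 1, as was the case for 7.26% of the genes tested (3.61% higher and 3.65% lower). For litters 3 and 1 that share was 10.8% (5.08% higher and 5.68% lower), and for litters 3 and 2 it was 5.49% (2.84% higher and 2.65% lower). Since each pair shares a litter with the others, the 3 comparisons are not independent and are given side by side.

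The number of calls rested on single mice. Without any 1 of the 4 mice of litter 1, no gene was called in any comparison by edgeR (1412 to 1585 genes at an unadjusted p under 0.05 for litter 2 against litter 1), and litter 2 against litter 1 gave 117 called genes without mouse 8 and none without mouse 5. No call remained for litter 2 against litter 1 with the summed rod marker level as a covariate (1830 genes at an unadjusted p under 0.05), or in any comparison among the 6 PBS-injected mice alone (1204 genes for that pair). For the main lists below, ranges are those when 1 mouse at a time was left out.

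**Figure D2:**
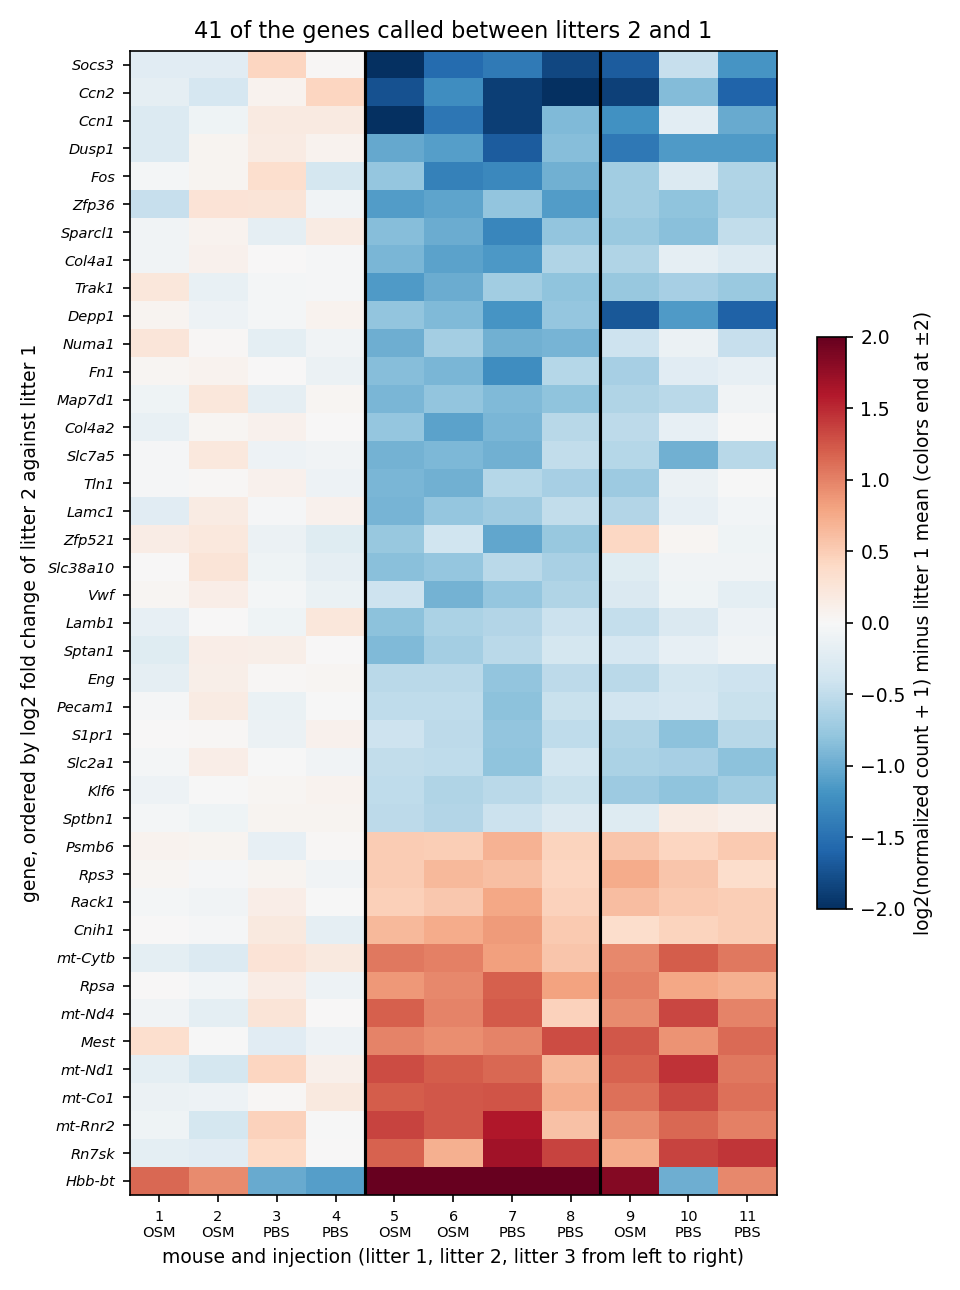
Heat map of 41 of the 42 genes called between litters 2 and 1 (rows, ordered by log2 fold change) in the 11 mice (columns, with the injection). Color gives log2(normalized count + 1) minus the litter 1 mean, blue lower and red higher; the 28 genes at the top are lower and the 13 at the bottom higher in the 4 mice of litter 2 than in the 4 of litter 1.

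Immediate early genes were higher in litter 1 than in the other litters. These genes are transcribed within minutes of a stimulus without new protein synthesis, and the list of 20 held transcription factors (the Fos, Jun, Egr and Klf families, Atf3, Nr4a1, Myc), feedback inhibitors such as Dusp1, Ier3 and Zfp36, and the secreted protein Ccn1. Of the 20, 5 were called lower in litter 2 than in litter 1, beside 0.164% of genes tested. At an unadjusted p under 0.05, 16 were lower, against a background of 6.05% of genes tested, and none was higher. Leaving out 1 mouse at a time gave 12 to 16. Against litter 1, litter 3 had 1 called lower, beside 0.0117% of genes tested. In that comparison 14 were lower at an unadjusted p under 0.05 (background 5.79%, 11 to 15 with 1 mouse left out). The median log2 fold change of the list was -0.83 in litter 2 and -0.54 in litter 3, both against litter 1, beside medians of 0.00 over all genes tested. Between litters 3 and 2 the list's median was 0.00, with 3 genes higher and 1 lower at an unadjusted p under 0.05 (background 3.09% and 3.35%). With the rod marker level as a covariate, 10 of the 20 were lower in litter 2 at that level.

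Klf6, a zinc finger transcription factor (chr13:5911481-5920393 on GRCm39), was called in both comparisons with litter 1. Its normalized counts, which are reads scaled by TMM factors to the mean library size, were 13918, 14862, 15219.7 and 15579 in litter 1, 10518, 9832, 10217 and 10899.7 in litter 2 and 8979, 8549 and 9160.3 in litter 3. Every mouse of litter 1 was above every other mouse, and litter 3 was also below litter 2 without overlap. The log2 fold change, given here and below ± SE, was -0.52 ± 0.08 in litter 2 against litter 1 (edgeR adjusted p = 0.0469) and -0.75 ± 0.08 in litter 3 (adjusted p = 0.0172).

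Dusp1, a phosphatase that switches off MAP kinases (chr17:26724564-26781102 on GRCm39), had 20079, 25242, 27313 and 25529.9 normalized counts in litter 1. In litter 2 it had 12001, 11372, 7660.2 and 13532, and in litter 3 9042, 11175 and 11088. Litter 1 was again above all other mice, while litters 2 and 3 overlapped. The log2 fold change was -1.13 ± 0.17 in litter 2 (edgeR adjusted p = 0.0469) and -1.25 ± 0.18 in litter 3 (adjusted p = 0.0555).

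Fos, a subunit of the AP-1 transcription factor, followed a different order, since litter 3 lay between the other litters. Its normalized counts were 11622, 12334, 14949 and 9324 in litter 1, 6956, 4654, 4880.5 and 6114 in litter 2 and 7321, 9855 and 7865 in litter 3. The log2 fold change in litter 2 against litter 1 was -1.09 ± 0.18 (edgeR adjusted p = 0.0469), that in litter 3 against litter 1 was -0.54 ± 0.19 (adjusted p = 0.412) and that in litter 3 against litter 2 was 0.55 ± 0.19 (adjusted p = 0.748). Litters 1 and 3 overlapped, in mouse 4 and mouse 10. Fosb, a relative of Fos, had 356, 496, 530.3 and 437 normalized counts in litter 1, 177, 174, 309 and 251 in litter 2 and 604, 477 and 486 in litter 3, so that here only litter 2 was low.

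Ccn1, a matricellular protein induced by YAP and serum, had 19658, 22539, 27143 and 26988 normalized counts in litter 1, 5996, 8783, 6503 and 12911 in litter 2 and 10283, 20639 and 11904 in litter 3. Mouse 10 of litter 3 reached the range of litter 1, and the other 6 mice of litters 2 and 3 stayed below it. Its log2 fold change was -1.50 ± 0.23 in litter 2 (edgeR adjusted p = 0.0469). Ccn2, its relative and a target of the same pathway, was outside the list and gave -1.68 ± 0.25 in litter 2 (edgeR adjusted p = 0.0469) and -1.44 ± 0.27 in litter 3 (adjusted p = 0.106), with every mouse of litter 1 above the rest. Zfp36, which promotes decay of AU-rich mRNAs, had a log2 fold change of -1.04 ± 0.17 in litter 2 (edgeR adjusted p = 0.0473).

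Other members did not pass the adjusted threshold but did not overlap between litters. Nr4a1, an orphan nuclear receptor, had 2854, 3454, 5010.3 and 4971 normalized counts in litter 1, 1875, 2619, 2107 and 1698 in litter 2 and 1534, 1843 and 1800.4 in litter 3 (edgeR adjusted p = 0.0967 and 0.0927 for litters 2 and 3 against litter 1). Egr1, Atf3, Ier3, Klf2, Junb and Jund also had all 4 litter 1 mice above the mice of both other litters. In all, 13 of the 20 did so against litter 2 and 12 against litter 3, beside 3.65% and 5.68% of genes tested for that direction. The members not past an unadjusted p of 0.05 in litter 2 were Btg2, an inhibitor of proliferation, Myc, with a log2 fold change of 0.05 ± 0.32 in litter 2 and 0.51 ± 0.35 in litter 3, and Egr2 and Egr3, which were near or at 0 reads in several mice.

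Socs3, an inhibitor of JAK-STAT signaling that is often transcribed with the immediate early genes and was not on the list, was called lower in litter 2. It had 1433, 1436, 2266 and 1713 normalized counts in litter 1, 404, 576, 631 and 475 in litter 2 and 529, 1219 and 739 in litter 3. The log2 fold change was -1.69 ± 0.25 in litter 2 (edgeR adjusted p = 0.0469) and -1.15 ± 0.28 in litter 3 (adjusted p = 0.188). The test had treatment as a covariate, and each litter held both injections.

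Promoters of 3 of the 5 immediate early genes called in litter 2 are shown because each holds a letter sequence that a known class of regulators binds. Each run is the 250 bases before the RefSeq start of the gene, 5′ to 3′ on the strand of the gene, placed on GRCm39 by an exact and unique match. Capitals mark the motifs searched on both strands: CRE (TGACGTCA, bound by CREB and ATF proteins), AP-1 (TGACTCA), the E-box CACGTG, and the CArG box bound by serum response factor.
Dusp1 (GRCm39, chr17:26727447-26727696, minus strand): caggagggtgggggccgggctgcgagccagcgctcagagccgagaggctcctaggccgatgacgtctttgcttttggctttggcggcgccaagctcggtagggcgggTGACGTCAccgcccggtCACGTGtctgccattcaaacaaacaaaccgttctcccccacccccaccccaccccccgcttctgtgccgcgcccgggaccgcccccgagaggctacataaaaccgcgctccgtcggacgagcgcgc
Zfp36 (GRCm39, chr7:28078654-28078903, minus strand): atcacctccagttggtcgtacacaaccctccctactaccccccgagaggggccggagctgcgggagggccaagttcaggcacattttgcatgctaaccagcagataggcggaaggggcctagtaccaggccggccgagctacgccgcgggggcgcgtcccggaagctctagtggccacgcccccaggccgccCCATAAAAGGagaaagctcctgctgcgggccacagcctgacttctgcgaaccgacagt
Klf6 (GRCm39, chr13:5911238-5911487, plus strand): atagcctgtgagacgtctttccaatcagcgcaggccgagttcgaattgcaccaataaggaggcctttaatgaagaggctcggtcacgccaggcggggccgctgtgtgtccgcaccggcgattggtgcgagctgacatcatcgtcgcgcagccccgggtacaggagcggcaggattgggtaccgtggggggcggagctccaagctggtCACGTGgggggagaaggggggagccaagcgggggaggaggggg
Dusp1 held a CRE at bases -143 to -136 and an E-box at -126 to -121, Zfp36 a CArG box at -58 to -49 and Klf6 an E-box at -43 to -38, counted from the start. Of 27025 promoters of this length, 1.62% held the CRE, 4.43% the AP-1 motif, 1.4% the CArG box and 6.05% the E-box. Of the 16 promoters matched among the 20 list members, 2 held the CRE (Btg2 and Dusp1), none the AP-1 motif, 1 the CArG box and 4 the E-box (Dusp1, Egr2, Klf4 and Klf6). The windows of Fos and Ccn1 held none of the 4. These are matches of letters, and binding was not measured.

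**Figure D3:**
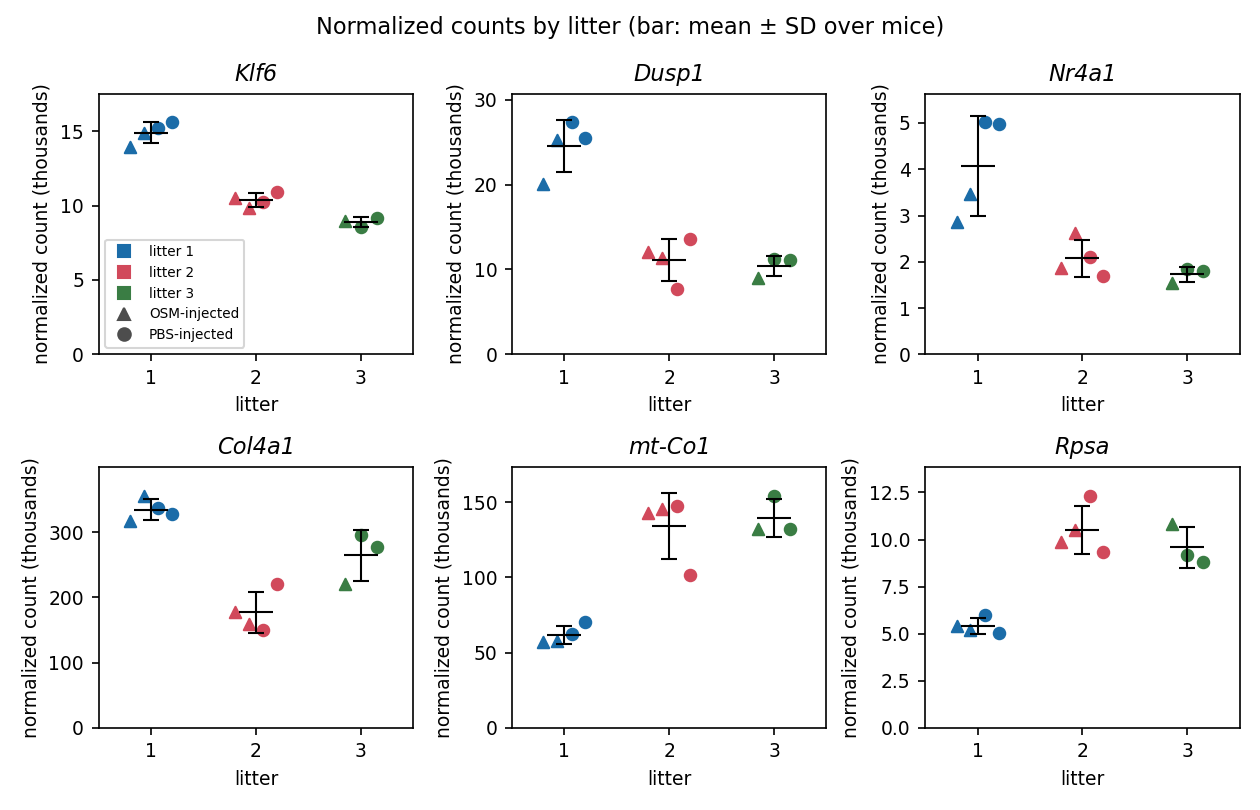
Normalized counts (in units of 1000, linear axes from 0) of 6 genes in each mouse by litter, with triangles for OSM-injected and circles for PBS-injected mice and bars for mean ± SD over 4, 4 and 3 mice. For Klf6, Dusp1 and Nr4a1 the 4 litter 1 mice lie above the rest, and for mt-Co1 and Rpsa below the rest. For Col4a1 the litter 2 values lie between 150651 and 221012 normalized counts, a range that mouse 9 of litter 3 enters at 220628.

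Depp1, a target of FOXO transcription factors that rises on fasting (chr6:116627570-116629755 on GRCm39), was called lower in both comparisons with litter 1. It had 23584, 21105, 22136 and 23826 normalized counts in litter 1, 13155, 12243, 10028 and 13304 in litter 2 and 6986, 10292 and 7377 in litter 3. Its log2 fold change was -0.89 ± 0.14 in litter 2 (edgeR adjusted p = 0.0469) and -1.47 ± 0.15 in litter 3 (adjusted p = 0.0172), and it was the gene with the lowest p for litter 3 against litter 1. No mouse of litter 1 overlapped the other litters. Tsc22d3, a glucocorticoid-induced gene, had 12925, 12211, 11693 and 9329.8 normalized counts in litter 1, 7110.2, 8145, 6329 and 8331 in litter 2 and 5395, 5611 and 5815 in litter 3, and the 3 litters did not overlap one another. Its log2 fold changes were -0.62 ± 0.12 and -1.02 ± 0.14 for litters 2 and 3 against litter 1 (edgeR adjusted p = 0.0728 and 0.0542), and it was not called.

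Of the 11 genes tested on the glucocorticoid list, none was called by edgeR, and 4 were lower in litter 2 and 6 in litter 3 at an unadjusted p under 0.05 (2 to 4 and 3 to 6 with 1 mouse left out, lowest without mouse 7 for litter 2 and without mouse 4 or mouse 10 for litter 3), beside 6.05% and 5.79% of all genes tested, with none higher. The members lower in litter 3 included Sgk1, a kinase that regulates ion transport, at -0.84 ± 0.22, and Cdkn1a, an inhibitor of cell cycle kinases, at -0.43 ± 0.12 on the log2 scale. Fkbp5, the most used marker of glucocorticoid exposure, overlapped among litters, with log2 fold changes of -0.84 ± 0.42 and 0.04 ± 0.43. Zbtb16 had reads in each mouse of litter 1 and none in the other 7 mice, with normalized counts of 0.979, 33.6, 6.47 and 177 in litter 1, so the level differed widely within that litter.

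Per1, a clock gene that also responds to glucocorticoids and to CREB, had 1099, 1279.9, 1054 and 732 normalized counts in litter 1, 388, 167, 409 and 533 in litter 2 and 427, 445 and 605 in litter 3. All 4 litter 1 mice were above the other 7. Its log2 fold change was -1.52 ± 0.36 in litter 2 (edgeR adjusted p = 0.12) and -1.14 ± 0.40 in litter 3 (adjusted p = 0.4). Of the 16 clock genes tested, none was called by edgeR, and 3 were lower at an unadjusted p under 0.05 in each of litters 2 and 3 (Per1, Cry1 and Bhlhe40), beside 6.05% and 5.79% of all genes tested. With 1 mouse left out these counts were 2 to 3 and 1 to 4, and the count in litter 3 was 1 with the length trend removed. The core activators Bmal1 and Clock had log2 fold changes of -0.37 ± 0.29 and 0.46 ± 0.22 in litter 2, with overlapping mice. The hour at which each litter was killed is not given in the sources used here, and its part in these values was not tested.

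Genes of the hypoxia response, which hypoxia-inducible factors drive in ischemic tissue, were mostly lower in litters 2 and 3 than in litter 1. The list's median log2 fold change was -0.25 in litter 2 and -0.40 in litter 3, with 13 and 15 of 20 genes below 0. Slc2a1, the glucose transporter of the blood-retina barrier, had 164995, 185701, 168268 and 161904 normalized counts in litter 1, 121382, 119751, 97433 and 132140 in litter 2 and 109053, 107520 and 95751 in litter 3. Litter 1 was above all other mice, with a log2 fold change of -0.53 ± 0.09 in litter 2 (edgeR adjusted p = 0.0481) and -0.70 ± 0.10 in litter 3 (adjusted p = 0.0555). Of the 20 members tested, 6 were lower and 2 higher in litter 2 at an unadjusted p under 0.05, beside 6.05% and 5.01% of all genes tested. With 1 mouse left out, 4 to 6 were lower in litter 2, lowest without mouse 4 or mouse 5. In litter 3, 7 were lower at that level (5 to 8 with 1 mouse left out), beside 5.79%, and none was higher. Adm, a vasodilator peptide, was not called, with log2 fold changes of -0.67 ± 0.19 and -0.98 ± 0.21. The 2 higher in litter 2 were the glycolytic enzymes Ldha and Aldoa. Ldha had 46231, 50040.2, 46532 and 52165 normalized counts in litter 1, 56892, 58378, 59528 and 58738 in litter 2 and 44522, 45548 and 41081 in litter 3, so that litter 2 was above both other litters without overlap. Its log2 fold changes were 0.26 ± 0.07 in litter 2 against litter 1 (edgeR adjusted p = 0.147) and -0.42 ± 0.07 in litter 3 against litter 2 (adjusted p = 0.412).

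Genes of the vascular basement membrane were lowest in litter 2. These encode the collagen IV chains, laminins, nidogens and perlecan that form the sheet under the endothelium, together with Sparc and fibronectin (Fn1), which bind it. The list of 14 was put together after some of these values had been seen, so its count is a description. Of the 14, 5 were called lower in litter 2 than in litter 1 (Col4a1, Col4a2, Fn1, Lamc1 and Lamb1), beside 0.164% of all genes tested. At an unadjusted p under 0.05, 11 were lower (11 to 12 with 1 mouse left out), beside 6.05% of all genes tested. In litter 3 against litter 2, no gene of the list was called by edgeR, and 11 were higher at an unadjusted p under 0.05, beside 3.09% of genes tested (8 to 11 with 1 mouse left out). Set against litter 1, litter 3 had 6 lower (2 without mouse 9) and 1 higher, beside 5.79% and 4.21% of genes tested. The median log2 fold changes were -0.62, 0.43 and -0.22 in the same order.

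Col4a1, the α1 chain of collagen IV (chr8:11248423-11362826 on GRCm39), had 317067, 355463, 337515 and 327699 normalized counts in litter 1. It had 177470, 159661, 150651 and 221012 in litter 2 and 220628, 296091 and 276589 in litter 3. Litter 1 was above both other litters, and mouse 8 of litter 2 and mouse 9 of litter 3 met near 220628. The log2 fold change was -0.92 ± 0.12 in litter 2 against litter 1 (edgeR adjusted p = 0.0267), -0.37 ± 0.13 in litter 3 against litter 1 (adjusted p = 0.389) and 0.55 ± 0.13 in litter 3 against litter 2 (adjusted p = 0.583). Col4a2, its partner chain, which is transcribed from the same bidirectional promoter, gave -0.82 ± 0.11, -0.27 ± 0.12 and 0.56 ± 0.11 in the same comparisons.

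Fn1, which encodes fibronectin, had 182835, 186625, 179534 and 163549 normalized counts in litter 1, 98708, 94176, 75571 and 120243 in litter 2 and 112250, 151995 and 159110 in litter 3. Its log2 fold change in litter 2 against litter 1 was -0.88 ± 0.14 (edgeR adjusted p = 0.0469). The laminin chains Lamc1 and Lamb1 gave -0.74 ± 0.11 and -0.62 ± 0.09 in that comparison (edgeR adjusted p = 0.0469 and 0.0469), and perlecan (Hspg2) gave -0.35 ± 0.11 in litter 2 against litter 1 and 0.54 ± 0.12 in litter 3 against litter 2. The exceptions were Sparc, which was nearly level with litter means of 526693, 536002 and 506489 normalized counts, Agrn, with -0.17 ± 0.11 in litter 2, and Col18a1, the source of endostatin. Col18a1 had 32350.5, 67037 and 46589 normalized counts in litter 3, where mice 10 and 11 were above all others and mouse 9 was not, against 28574 to 35819.5 in litter 1 and 29861 to 37696 in litter 2.

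The summed CPM of the 14 basement membrane genes were 42764, 45054, 45027 and 44666 in litter 1, 34128, 31745, 32426 and 37068 in litter 2 and 37629.5, 41997 and 42664 in litter 3. Litters 1 and 2 did not overlap, and neither did litters 2 and 3. Sparcl1, a secreted relative of Sparc that was outside the list, was called in litter 2 as well, with 124061, 136332, 115237 and 146056 normalized counts in litter 1, 71773, 65114, 52520.4 and 74808 in litter 2 and 77714, 72652 and 92620.1 in litter 3 (log2 fold change -0.98 ± 0.13, edgeR adjusted p = 0.0267).

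Proteins that tie the membrane to the cytoskeleton were among the genes called lower in litter 2. Tln1 encodes talin, which links integrins to actin, and had a log2 fold change of -0.78 ± 0.12 (edgeR adjusted p = 0.0469). Sptan1 and Sptbn1, the α and β spectrins, gave -0.62 ± 0.10 and -0.45 ± 0.07 (edgeR adjusted p = 0.0473 and 0.0469). In litter 3 against litter 2 these 3 genes had log2 fold changes of 0.45 ± 0.13, 0.38 ± 0.11 and 0.42 ± 0.08, none of them called. Numa1, a spindle protein, Map7d1, which binds microtubules, and Trak1, which moves mitochondria along them, were also called lower in litter 2, at -0.89 ± 0.15, -0.86 ± 0.15 and -0.91 ± 0.14. The summed exon lengths of these 6 genes (Tln1, Sptan1, Sptbn1, Numa1, Map7d1 and Trak1) were 9807, 13678, 17525, 9089, 7478 and 12574 bases, and the trend with length is given below.

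Endothelial surface genes shared part of this pattern. Of the 16 endothelial markers, 3 were called lower in litter 2 than in litter 1, beside 0.164% of all genes tested, and 7 were lower at an unadjusted p under 0.05, beside 6.05% (6 to 9 with 1 mouse left out), with none higher. For litter 3 against litter 1, none was called by edgeR and 6 were lower, beside 5.79% (5 to 9). Pecam1, the CD31 used for the sort, had 54555, 61974, 50629 and 55063 normalized counts in litter 1, 38896, 38837, 31219.6 and 40884 in litter 2 and 42712, 43684 and 40647 in litter 3. Its change on the log2 scale was -0.57 ± 0.09 in litter 2 (edgeR adjusted p = 0.0469) and -0.37 ± 0.10 in litter 3 (adjusted p = 0.229). Litter 1 was above every other mouse.

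Eng, a co-receptor for TGF-β family ligands, gave -0.60 ± 0.09 in litter 2 (edgeR adjusted p = 0.0469), and Vwf, the clotting factor stored by endothelial cells, gave -0.67 ± 0.11 (adjusted p = 0.0473). Vwf was low only in litter 2, with 77593, 53635, 60792 and 68286 normalized counts there, 105759, 113410, 100744 and 94696 in litter 1 and 84385, 97196 and 90331 in litter 3. S1pr1, the receptor for sphingosine 1-phosphate that keeps junctions closed, had a log2 fold change of -0.55 ± 0.09 in litter 2 (edgeR adjusted p = 0.0473) and -0.64 ± 0.10 in litter 3 (adjusted p = 0.077). The VEGF receptor genes Kdr and Flt1 gave -0.59 ± 0.14 and -0.35 ± 0.10 in litter 2 and -0.33 ± 0.15 and -0.45 ± 0.11 in litter 3, not called, with litter 1 above every other mouse. By contrast Cldn5, the main tight junction claudin, Esam and Cd34 overlapped between litters 1 and 2, at 0.14 ± 0.11, 0.01 ± 0.08 and -0.06 ± 0.08. In bulk samples, fewer cells of a type and less RNA per cell cannot be told apart.

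Of 14 genes of the blood-retina barrier, 1 was called lower in litter 2, beside 0.164% of all genes tested. Slc7a5, the large neutral amino acid transporter, had 127791, 150620, 121389 and 124318 normalized counts in litter 1, 67448, 69788, 66791 and 92439 in litter 2 and 88395, 66886 and 89251 in litter 3 (log2 fold change -0.82 ± 0.13 in litter 2, edgeR adjusted p = 0.0469). Slco1a4, an organic anion transporter counted among the endothelial markers, was not called, but every mouse of litters 2 and 3 was below litter 1, and its log2 fold change in litter 3 was -1.29 ± 0.25. Lef1, an effector of Wnt signaling, gave -0.47 ± 0.13 and -0.71 ± 0.14 in litters 2 and 3. In all, 5 barrier genes were lower in litter 2 (4 to 9 with 1 mouse left out) and 3 in litter 3 (3 to 5) at an unadjusted p under 0.05. The shares over all genes tested were 6.05% and 5.79%. Of 14 tip cell genes, which mark the leading cells of sprouts, 2 were called lower in litter 2, beside 0.164% of all genes tested. Both, Col4a1 and Lamb1, also belong to the basement membrane. At an unadjusted p under 0.05, 4 tip cell genes were lower and 1 higher in litter 2, beside 6.05% and 5.01% of all genes tested. In litter 3, 5 were lower at that level (3 to 6 with 1 mouse left out), beside 5.79%, and none was higher. Apln, a peptide released by tip cells, had 18764, 18056, 26199.9 and 38846 normalized counts in litter 1, 14237, 16982, 13628 and 14722 in litter 2 and 12507, 13660.2 and 13420.4 in litter 3, and was not called. Kcne3, another tip cell gene, went the other way, at 0.83 ± 0.21 in litter 2.

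Mitochondrially encoded RNA was higher in litters 2 and 3. These genes of the respiratory chain are transcribed from the mitochondrial genome. The share of reads on them was 0.683, 0.635, 0.921 and 0.862% in litter 1, 1.76, 1.66, 1.62 and 1.15% in litter 2 and 1.58, 1.98 and 1.68% in litter 3. The means were 0.775 ± 0.138% (SD, n = 4), 1.55 ± 0.272% (n = 4) and 1.75 ± 0.208% (n = 3), and litter 1 did not overlap the others. The difference among litters had an exact permutation p of 0.00741, adjusted over 5 library measures to 0.0222. Of 13 genes, 8 passed the filter, 4 had no read in any mouse, and multi-mapping reads, such as those shared with nuclear copies, were left out by the authors' counting.

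All 8 were higher in litter 2 at an unadjusted p under 0.05, beside 5.01% of all genes tested. Of these 4 were called, beside 0.0821%. All 8 were higher in litter 3 at that level, beside 4.21%, and 1 was called, beside 0.00587%. Leaving out 1 mouse at a time did not change either count of 8. Among PBS-injected mice alone the counts were 4 in litter 2 and 7 in litter 3, and with the rod covariate 7 and 8. mt-Co1, a core subunit of cytochrome c oxidase, had 56935, 57622, 62246 and 70147 normalized counts in litter 1, 142938, 145335, 147156 and 101671 in litter 2 and 131868, 154045 and 132302 in litter 3. The log2 fold change was 1.12 ± 0.13 in litter 2 (edgeR adjusted p = 0.0267) and 1.17 ± 0.13 in litter 3 (adjusted p = 0.0172). mt-Nd1, mt-Nd4 and mt-Cytb were called in litter 2, at 1.08 ± 0.19, 1.00 ± 0.17 and 0.87 ± 0.14, as was the large ribosomal RNA mt-Rnr2 at 1.23 ± 0.20. Within litter 2, mouse 8 had the lowest level of each of these 5.

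Cytosolic ribosomal protein genes moved in the same direction by a smaller step. Of 80 tested, 3 were called higher in litter 2, among them Rpsa and Rps3, and 55 were higher at an unadjusted p under 0.05 (41 to 59 with 1 mouse left out, lowest without mouse 7). Over all genes tested these shares were 0.0821% and 5.01%. No member was called by edgeR in litter 3, where 62 were higher at that level (36 to 63, lowest without mouse 9), beside 4.21% of all genes tested. The medians were 0.39 and 0.46 on the log2 scale, and 79 of the 80 were above 0 in each comparison. Between litters 3 and 2, 1 was higher and the median was 0.04. Their share of reads was 1.29, 1.13, 1.24 and 1.06% in litter 1, 1.63, 1.71, 1.73 and 1.48% in litter 2 and 1.85, 1.57 and 1.52% in litter 3 (exact permutation p = 0.00889, adjusted p = 0.0222), with litter 1 below all other mice.

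Rpsa, which encodes the laminin receptor of the small ribosomal subunit, had 5416, 5170.1, 5997 and 5016 normalized counts in litter 1, 9863, 10511, 12312 and 9360 in litter 2 and 10836, 9179 and 8784 in litter 3. The fitted log2 fold change was 0.96 ± 0.12 in litter 2 (edgeR adjusted p = 0.0267) and 0.83 ± 0.12 in litter 3 (adjusted p = 0.0565). Rack1, a scaffold on the small subunit, and the proteasome subunit Psmb6 were called as well, at 0.57 ± 0.09 and 0.53 ± 0.09 in litter 2. Many ribosomal protein genes have near-identical pseudogenes that can take or remove reads, so their single values are uncertain. Rn7sk, a small nuclear RNA that carries no poly(A) tail, had a log2 fold change of 1.23 ± 0.15 in litter 2 (edgeR adjusted p = 0.0267) and 1.08 ± 0.16 in litter 3 (adjusted p = 0.0565).

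The summed length of all annotated exons of a gene moved with the litter difference. This length can exceed that of the transcript mainly made, so a trend with transcript length itself was not measured. Over 5 bins of summed exon length with 3391 to 3393 genes each, the median log2 fold change in litter 2 against litter 1 went from 0.21 in the shortest bin (median length 1274 bases) to -0.09 in the longest (12048 bases). In litter 3 against litter 1 it went from 0.11 to -0.05, and in litter 3 against litter 2 from -0.09 to 0.04. mt-Co1 has 1545 bases and Rps3 6956, against 7464 for Col4a1 and 15831 for Fn1. With the length trend removed from the counts, 49 of 80 ribosomal protein genes and 8 of 8 mitochondrial genes were higher in litter 2 at an unadjusted p under 0.05. After the same removal, 11 of 14 basement membrane genes and 16 of 20 immediate early genes were lower. The trend removed is that with summed exon length, so these counts do not settle what transcript length would do. RNA integrity was not used here, and its part in the trend was not tested.

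Mest, an imprinted gene expressed from the paternal allele and high in growing tissue (chr6:30723546-30752058 on GRCm39), was called higher in litter 2. Its normalized counts were 2961, 2343, 2016 and 2206 in litter 1, 4674, 4480.1, 4668 and 5807 in litter 2 and 5581, 4408 and 5162 in litter 3, so litter 1 was below every other mouse. On the log2 scale the change was 1.05 ± 0.15 in litter 2 (edgeR adjusted p = 0.0469) and 1.10 ± 0.16 in litter 3 (adjusted p = 0.0555). Among genes of DNA replication and mitosis, none was called by edgeR. Of 19 replication genes, 4 were higher in litter 2 and 3 in litter 3 at an unadjusted p under 0.05, beside 5.01% and 4.21% of all genes tested, with medians of 0.39 and 0.43. These counts ranged from 1 (without mouse 1) to 6 and from 2 to 5, and the count in litter 2 was 1 with the rod covariate or among PBS-injected mice. Of 21 mitosis genes, 2 were higher in litter 2 (0 to 3, and 0 with the rod covariate, with the Y-linked covariate or among PBS-injected mice) and 7 in litter 3 (3 without mouse 9 or without mouse 11), with medians of 0.21 and 0.66. Birc5, an inhibitor of apoptosis in dividing cells, had 838, 615, 1146 and 716 normalized counts in litter 1 and 1438, 2021 and 1629 in litter 3, without overlap, while Mki67, the usual proliferation marker, overlapped at 0.02 ± 0.58 on the log2 scale.

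**Figure D4:**
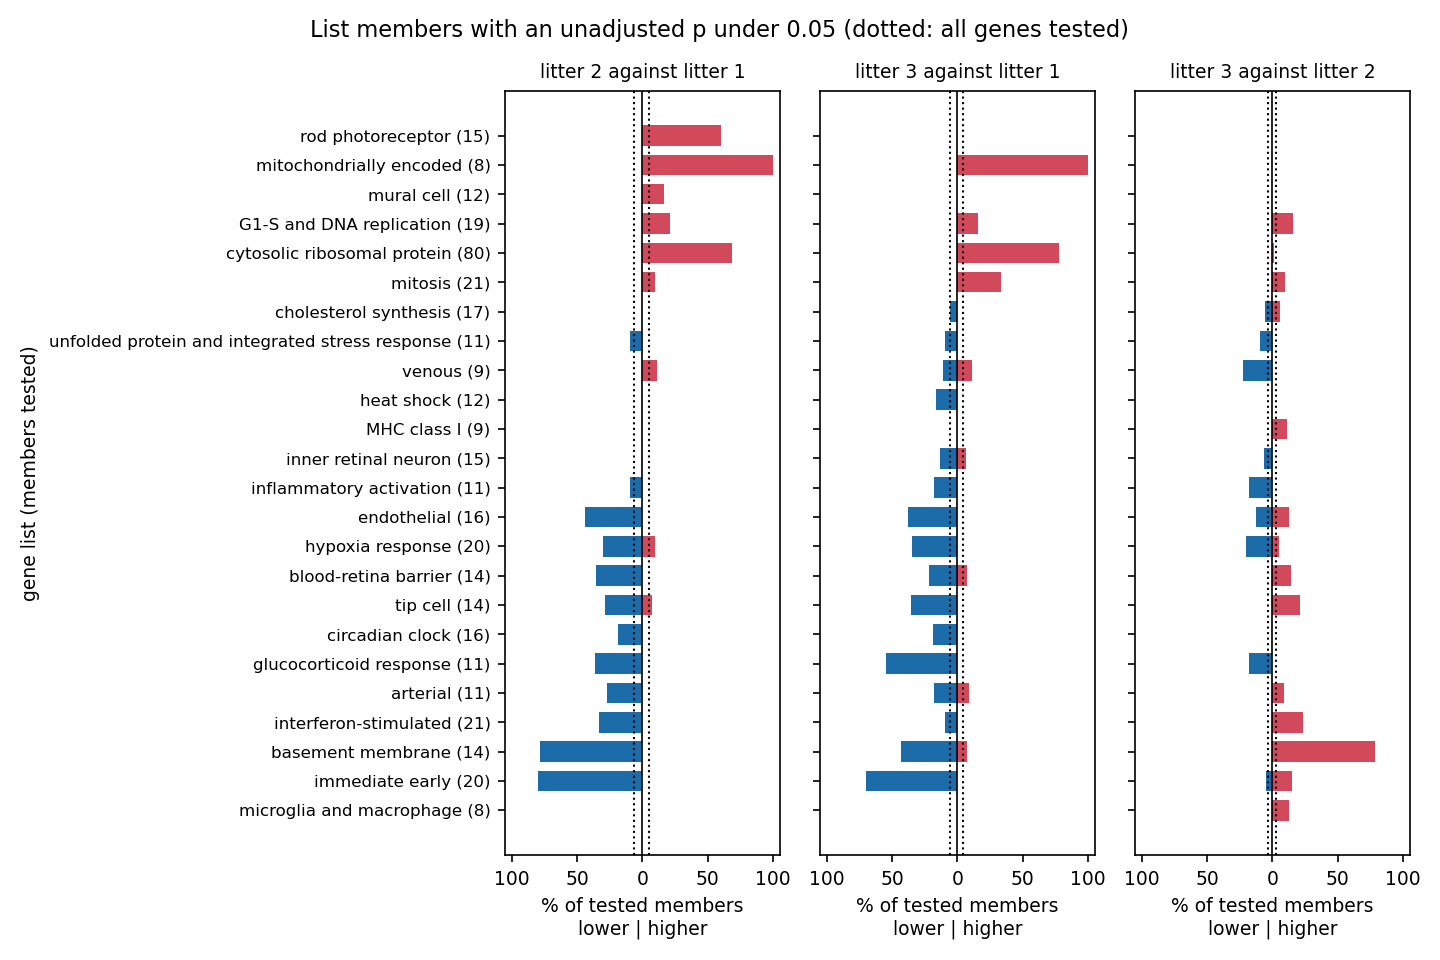
Share of the tested members of each gene list with an unadjusted p under 0.05, for the 3 pairs of litters. Rows are the lists of at least 8 tested members, with the number tested, and the lens list is not drawn. Lower is to the left in blue and higher to the right in red. Dotted lines give the share over all 17050 genes. Lists that stand off the lines in both comparisons with litter 1 include immediate early, mitochondrial, ribosomal protein, glucocorticoid response, endothelial, hypoxia response, tip cell and blood-retina barrier genes. Basement membrane genes stand off in all 3 pairs, with 11, 6 and 11 of 14 members lower, lower and higher.

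Interferon-stimulated genes, the antiviral program downstream of type I interferon, were lower in litter 2 at an unadjusted p under 0.05 for 7 of 21. The share over all genes tested was 6.05%, and none of the list was called by edgeR. In litter 3 against litter 2, 5 of 21 were higher at that level, beside 3.09% of all genes tested. These counts rested on single mice: the first ranged from 2 to 9 and the second from 1 to 10 with 1 mouse left out. The first was lowest without mouse 5 or mouse 8 and highest without mouse 6, and the second was lowest without mouse 9 and highest without mouse 6. The summed CPM of the list were 1508, 2591, 1320.4 and 1117 in litter 2 and 2499, 1448 and 1485 in litter 3, with mouse 6 and mouse 9 far above the rest of their litters, and 1911, 1958, 1740.4 and 1713 in litter 1. Usp18, which damps interferon signaling, was an exception in that litter 2 was below both other litters in every mouse, with 1482, 1560, 1183 and 654 normalized counts against 2327, 2142, 1878 and 2199 in litter 1 and 2580.3, 1667 and 1922 in litter 3.

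Several lens crystallins were found only or almost only in litter 1. Crystallins are the structural proteins of lens fibers. Cryaa had 184, 294, 120 and 195 reads in the mice of litter 1 and 0 reads in each of the other 7. Crygs had 91, 88, 50 and 64 reads and Crygb 37, 87, 20 and 63 reads in litter 1, and again 0 in each of the other 7 mice. No other gene had at least 10 reads in every mouse of litter 1 and none elsewhere, and no gene met that rule for litter 2 or litter 3. Against 3 reads over the group, Cryaa was at least 253-fold higher in litter 1 than in litter 2 and at least 245-fold higher than in litter 3. These limits cover counting error only, since the reads carry no molecular identifiers.

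Crybb2 had 188, 215, 114 and 269 reads in litter 1 and 11 in all others together, all in mouse 8, and Cryba1 had 129, 175, 19 and 283 reads in litter 1 and 14 in all others, all in mouse 11. Crybb3 was an exception with reads in every mouse, and Cryba4 had reads in mice 2, 4, 7 and 10. Of 11 lens genes tested, none was called by edgeR, and 7 were lower in litter 2 (5 to 7 with 1 mouse left out) and 6 in litter 3 (4 to 6) at an unadjusted p under 0.05. The shares over all genes tested were 6.05% and 5.79%. The summed CPM of the lens list were 24.5, 31.3, 19.6 and 43.1 in litter 1, 11.4, 2.81, 6.88 and 8.73 in litter 2 and 3.96, 12 and 10.6 in litter 3, so the amounts were small beside the endothelial markers. The part of lens RNA in the other litter differences was not tested.

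Rod photoreceptor RNA was present in every mouse and varied most in litter 2. The summed CPM of 15 rod markers, which include rhodopsin and the proteins of the light response, were 591, 606, 493 and 605 in litter 1, 6557, 2172, 920.2 and 736 in litter 2 and 221, 1839.6 and 506 in litter 3. Of the 15, none was called by edgeR, and 9 were higher in litter 2 at an unadjusted p under 0.05 (0 to 11 with 1 mouse left out, with 0 without mouse 1 and 0 without mouse 5). The share over all genes tested was 5.01%. Mouse 5 alone held over 2 times the level of any other mouse, and the level of mouse 6 and mouse 10 was also above the rest.

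Red blood cell transcripts were highest in mice of litter 2, with summed CPM of 895, 1135, 557 and 591, against 410.3, 351, 279 and 134 in litter 1 and 618, 119 and 267 in litter 3. Litters 1 and 2 did not overlap, while mouse 9 of litter 3 was within the range of litter 2. Of 5 erythroid genes tested, 5 were higher in litter 2 than in litter 1 at an unadjusted p under 0.05. Of these 1 was called, beside 0.0821% of all genes tested. Among PBS-injected mice alone, 2 were higher in litter 2 at the unadjusted level. In litter 3 against litter 2, 5 were lower at that level in all mice, none called by edgeR. Over all genes tested, 5.01% were higher in the first comparison and 3.35% lower in the second at that unadjusted level. Hbb-bt, an adult β-globin, had 1190.2, 1034, 266 and 248 normalized counts in litter 1, 4237, 3872, 2304 and 2389 in litter 2 and 1903, 272 and 1043 in litter 3 (log2 fold change 2.52 ± 0.40 in litter 2 against litter 1, edgeR adjusted p = 0.0469). Here mouse 9 was below litter 2. Alas2, the first enzyme of heme synthesis in red cell precursors, had 1096, 842, 619 and 509.8 normalized counts in litter 1, 2047, 2286, 811 and 1174 in litter 2 and 1199, 305 and 482 in litter 3, with overlap. The α-globin genes Hba-a1 and Hba-a2 and the β-globin genes are near-identical copies, so the split of reads within each pair is uncertain. Their part in the endothelial differences was not tested.

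**Figure D5:**
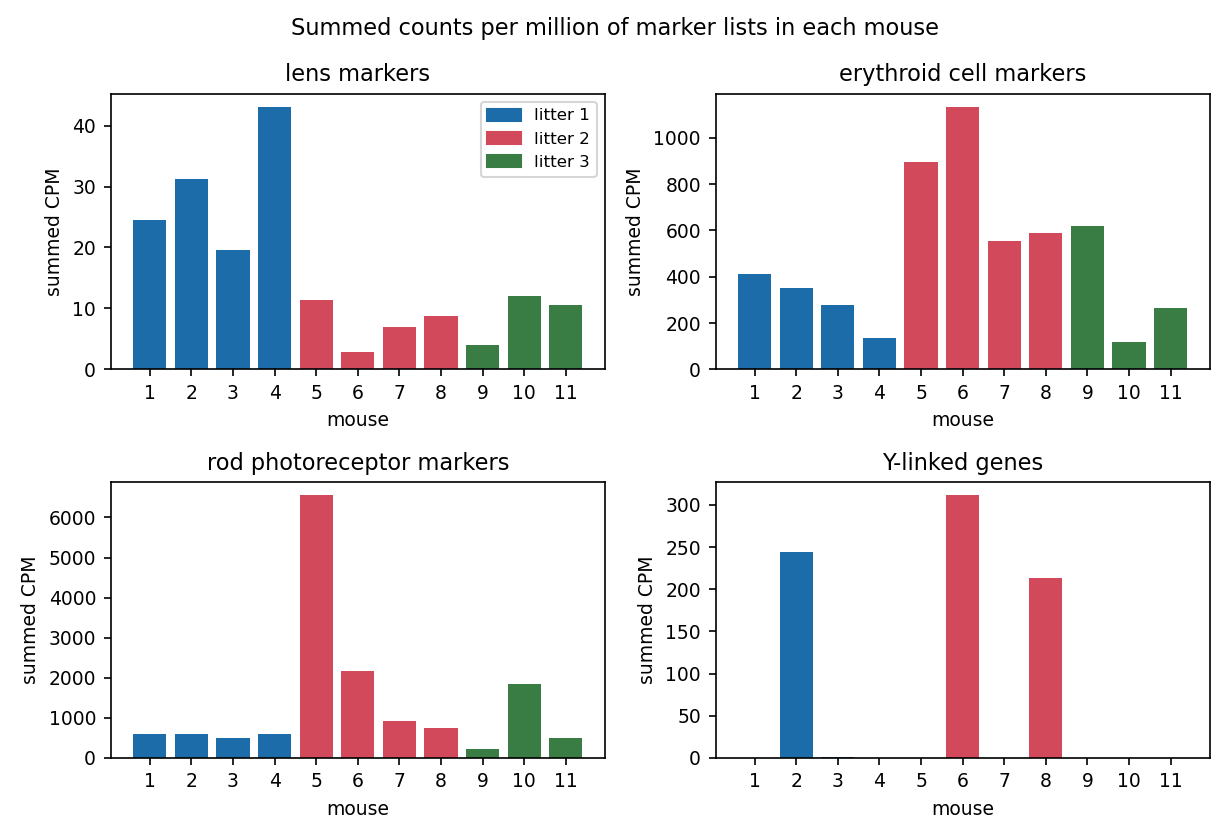
Summed CPM (linear axes from 0) of lens, erythroid and rod photoreceptor markers and of 4 Y-linked genes in each of the 11 mice, colored by litter. Lens markers are highest in the 4 mice of litter 1, erythroid markers in litter 2 (mouse 6 highest), rod markers in mouse 5 at 6557, and Y-linked genes are seen in mice 2, 6 and 8.

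Of 13 microglia and macrophage markers 8 were tested, and 1 was past an unadjusted p of 0.05 in the 3 comparisons together. Over all genes tested, 5.01% were higher and 6.05% lower in litter 2 against litter 1 at that level. The shares were 4.21% and 5.79% in litter 3 against litter 1, and 3.09% and 3.35% in litter 3 against litter 2. On lists this short, 1 or 2 members are near those shares or little above them. Of 12 mural cell markers tested, 2 were higher in litter 2 at that level (0 to 5 with 1 mouse left out) and none in litter 3, of 7 Müller glia and astrocyte markers tested 3 were lower in litter 3 (1 to 3), and none of the inner retinal neuron, cone, platelet or pigment epithelium markers was called by edgeR, with at most 2 of a list past an unadjusted p of 0.05 in 1 direction. Of 5 fibroblast markers tested, none was called by edgeR and 2 were lower in litter 2 at that level (1 to 3). Both did not overlap litter 1, beside 3.65% of all genes tested for that direction. Dcn, a collagen-binding proteoglycan, had 340, 151, 73 and 89 reads in litter 1, 0, 1, 16 and 0 in litter 2 and 215, 117 and 88 in litter 3, so that litter 2 was below both other litters. Pdgfra, a growth factor receptor, had 49, 3, 1 and 154 reads in litter 1 and 0 in each mouse of litter 2. The part of fibroblast RNA in the values of the basement membrane genes was not tested. The leukocyte marker list, which includes Ptprc (CD45), the marker used to remove leukocytes, summed to 35.4 to 139 CPM per mouse and had no member called by edgeR, with 2 of 6 tested lower in litter 3 at an unadjusted p under 0.05 (Lyz2 and S100a9, whose reads were mostly in mice 3 and 4). Arterial (11 tested), venous (9), inflammatory activation (11), heat shock (12), unfolded protein response (11), cholesterol synthesis (17) and MHC class I genes (9) had no call by edgeR in any pair, and at most 3 members of each were past an unadjusted p of 0.05 in 1 direction.

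The sex of the pups is not in the labels, and sex-linked RNA differed between mice of the same litter. The 4 Y-linked genes summed to 8665 reads in mouse 2, 8869 in mouse 6 and 7476 in mouse 8, with 0 to 21 reads in the other 8 mice. Xist, the RNA of the inactive X chromosome, had 2, 0 and 0 reads in those 3 mice and 2696 to 6841 in the other 8. By these reads, 1 of 4 mice in litter 1, 2 of 4 in litter 2 and 0 of 3 in litter 3 carried Y-linked RNA, and litter was not matched for it. With the Y-linked level as a covariate, edgeR called 32 genes in litter 2 against litter 1 and none in litter 3 against litter 1, where 3 had been called.

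Between litters 3 and 2, where no gene was called, the gene with the lowest p was Pdlim5, which encodes a PDZ and LIM domain protein of the cytoskeleton (-0.95 ± 0.14, edgeR adjusted p = 0.229), named after its values were seen. Zfp521, next in order, a zinc finger protein of progenitor cells, had 4059, 4249, 3364 and 3106 normalized counts in litter 1, 2166, 2793, 1792 and 2159.8 in litter 2 and 4907, 3744 and 3448 in litter 3. It was called lower in litter 2 against litter 1 (-0.73 ± 0.12, edgeR adjusted p = 0.0473), and in litter 3 against litter 2 it had a log2 fold change of 0.91 ± 0.13 (adjusted p = 0.229). No mouse of litter 2 overlapped either other litter. Slc38a10, an amino acid transporter, had the same order at -0.71 ± 0.12 and 0.57 ± 0.13. Cnih1, a receptor for export from the endoplasmic reticulum, had the opposite order at 0.69 ± 0.11 and -0.27 ± 0.12.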

How the data were processed

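Per the labels and the study's methods, the authors amplified cDNA from sorted cells by poly(A)-primed SMARTer synthesis, sequenced single reads without molecular identifiers, aligned them with STAR to GRCm39 and counted reads per GENCODE gene with featureCounts. The deposited files hold these raw counts for 55359 gene identifiers. Counting with standard settings ignores strand and leaves out multi-mapping reads, so overlapping genes, antisense genes and close copies are uncertain. GENCODE mouse annotation in hand gave symbols for 54749 identifiers and none for 610. The column names of 2 files give another mouse number than their labels, with the same treatment, and the labels were followed.

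Litter came from the submitters' record of the mice. Genes with enough counts (filterByExpr, minimum 10) were fitted with edgeR 4.0.16 in R 4.3.3 (TMM, robust quasi-likelihood F test, litter plus treatment), with Benjamini-Hochberg adjustment over 17050 genes for each comparison. The common biological coefficient of variation was 0.923. Library-level values were tested by exact permutation of litter within treatment, which cannot pass 0.05 for a pair with litter 3 (smallest p 0.0556). No pair of libraries agreed within sampling noise. DESeq2 1.42.0 and limma 3.58.1 served for alternatives and component analysis. Scripts were tested on simulated data.

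The litters and 33 gene lists were chosen with earlier results of these data known, and the basement membrane list after its values were seen. Named genes were list members and, per pair, up to 10 called protein-coding genes per direction with the largest change and a mean of at least 50 normalized counts, and the 10 with the lowest p across litters. Other called genes were named after their values were seen. Effects of treatment were not examined. Results for 1 called gene are not reported here.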

Additional observations from a re-analysis of the deposited data

Results flagged for a closer look

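In 7 of 130 groups of 4 mice, 1 mouse stood apart from the other 3 by Dixon's criterion for the gap over the range, and chance gives about 1 in 20 such groups. In litter 2, mouse 8 was lowest for mt-Co1 at 101671 normalized counts (median of the other 3, 145335) and highest for Mest at 5807 (4668). Also in litter 2, the hypoxia response genes summed to 6761 CPM in mouse 7 (7455 in the others). In litter 1, mouse 3 was lowest for rod photoreceptor markers at 493 CPM (605) and for inflammatory activation genes at 895 CPM (963), and mouse 1 was lowest for basement membrane genes at 42764 CPM (45027). The Y-linked genes summed to 244 CPM in mouse 2 of litter 1 and had a median of 0 in the other 3. No cause was tested.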

How the results depend on the processing

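The counts of called genes depended on the processing. Across the 3 litters, litter 2 against 1 and litter 3 against 1, they were 625, 488 and 274 with no filter on low counts, 109, 176 and 63 with at least 10 counts in every mouse, 995, 986 and 841 with DESeq2, and 0, 0 and 0 in PBS-injected mice alone. For litter 3 against 2, no filter gave 98 and DESeq2 457. Without the treatment term, 19 genes differed across litters and 17 in litter 3 against 1. Thinning to the smallest library gave 15 and 11, and the Y-linked level as a covariate 13 and 0. Without robust estimation, litter 2 against 1 gave 6.

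Of the alternatives chosen after seeing the data, removing the length trend gave 14, 27 and 10, the rod marker covariate gave 1 across litters and 0 in litter 2 against 1, and adjusting the 3 pairs together gave 1 in litter 2 against 1. The pseudo-F was 1.08 with the 500 most variable genes, and the first component's F was 7.26 as reported, 19.6 with all genes and 2.13 with log2 CPM. Leaving out 1 mouse at a time gave 0 to 44 genes across litters, 0 to 117 in litter 2 against 1 and 0 to 19 in litter 3 against 1. It gave F values of 4.02 to 17.2 and 2.00 to 34.4 for the first and second components, 0.158 to 2.90 for total counts, 0.390 to 5.59 for genes detected and 3.10 to 7.19 for the share of the 50 highest genes. The cause was not tested in any of these. For the 23 genes named by size of change or lowest p, no alternative reversed a direction in either comparison with litter 1, and of 550 alternative values of their 25 calls, 288 lost the call. Medians of some lists of other cell types did change sign, such as rod markers in litter 3 against 1 (0.87 as reported, lowest -0.54 with 1 mouse left out).

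No paired analysis was possible because the litters share no mouse numbers. With 3 or 4 mice per litter, 1 run per litter and a high spread between mice, a gene that was not called was not shown to be level.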
